A study of Mus musculus with 12 samples.

Results

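The genes described here encode enzymes that add or remove methyl groups on DNA and histones, or remove acyl groups from histones and other proteins. They were taken by name from the gene column of the authors' deposited comparison table. The name patterns were those of the KDM demethylases, the KMT2, KMT5, SETD and SETDB methyltransferases, the HDAC and sirtuin deacylases, the DNA methyltransferases DNMT1, DNMT3A and DNMT3B, the TET dioxygenases, and EZH1 and EZH2. Kdm5c, Kdm5d and Kdm6a were left out. This gave 59 genes of the 55401 in the files, and all 59 had enough counts to be tested.

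Messenger RNA had been sequenced from 12 libraries of spleen CD4 T cells. The C57BL/6 mice had been infected for 21 days with Leishmania donovani, the protozoan parasite of visceral leishmaniasis. Both populations came from infected mice (6 mice per the series description), and no uninfected group was part of the comparison. The first population, TLCP, was sorted as CD4 T cells that were LAG-3+ and CXCR5+ with low to intermediate PD-1 (PD-1lo/int) and gave 6 libraries. The second, Tfh, was sorted as T follicular helper cells, which the series description gives as CXCR5+ PD-1hi and mostly of the germinal center, and gave 6 libraries. Nothing states whether a library held cells of 1 mouse or of several, and the p-values measure the spread between these libraries. The question was how the transcriptome of TLCP cells differs from that of Tfh cells.

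Chromatin enzymes act on the histone tails and cytosines that decide how readily a gene is transcribed. Methylation of lysine 4 of histone H3 by the KMT2 and SETD1 enzymes marks active promoters and enhancers, methylation of lysine 27 by EZH1 and EZH2 within Polycomb complexes marks silenced genes, and demethylases and deacetylases remove such marks. DNMT enzymes methylate cytosines, and TET enzymes oxidize the methyl group as the first step of its removal. In T cells these enzymes help to fix or loosen the choice between helper and follicular fates.

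The libraries held 6939770 to 12688306 gene-assigned reads each. Levels of a gene are CPM, counts scaled to library size with TMM factors, and a count of 0 in a library would allow up to 0.236 to 0.432 CPM, which covers counting error only. The sort markers followed the labels: mean Lag3 was 189 CPM in TLCP and 40.5 in Tfh, mean Cxcr5 277 and 849, and mean Pdcd1, the gene of PD-1, 36.6 and 318. The T cell genes Cd3e, Cd4, Trac and Cd28 were present in every library, and 3 of the 4 (all but Cd3e) were lower in TLCP, where they summed to 2001 to 2619 CPM against 2928 to 3337 in Tfh. All 4 Tfh genes (Bcl6, Il21, Cxcr5, Sh2d1a) were lower in TLCP. Transcripts of other cells were also present and differed between the populations: 4 of 6 B cell genes, 4 of 4 tested plasma cell genes and 5 of 5 tested basophil and mast cell genes were higher in TLCP. The plasma cell genes summed to 4289 to 25834 CPM in TLCP and 827 to 1727 in Tfh, with Ighm and Jchain the most abundant. The B cell genes, led by Ms4a1 and Cd22, summed to 404 to 1618 CPM in TLCP and 254 to 573 in Tfh. The basophil and mast cell genes, led by Mcpt8 and Prss34, summed to 26.1 to 96.2 CPM in TLCP and 0.239 to 7.17 in Tfh. The monocyte and macrophage (Lyz2, Csf1r), neutrophil (S100a8, S100a9) and erythroid (Hbb-bs, Alas2) genes gave no call, 1 of 2 tested dendritic cell genes was higher (list led by Flt3 and Zbtb46), and 1 of 3 tested CD8 and NK cell genes was lower (list led by Klrb1c and Cd8b1). Among 35 cell cycle genes, 10 were higher and 6 lower in TLCP (28.6% and 17.1%, against 16.8% and 16.4% of all tested genes). Mean Mki67, a marker of dividing cells, was 874 CPM ± 164 (SD, n = 6) in TLCP and 668 ± 48.6 in Tfh (edgeR adjusted p = 0.00744), and Top2a was 564 and 477 CPM (adjusted p = 0.05). The part of these other cells and of cell division in the enzyme results was not tested, and in bulk libraries fewer cells of a type and less RNA per cell cannot be told apart.

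Of the 59 enzyme genes, 14 were higher and 9 were lower in TLCP (edgeR quasi-likelihood test, adjusted p under 0.05 over all 12015 tested genes). These are 23.7% and 15.3% of the enzymes, against 16.8% and 16.4% of all tested genes. In either direction 39.0% of the enzymes were called, against 33.2% of all tested genes. Only 7 enzymes both passed and changed at least 1.5-fold (11.9%, against 16.1% of all tested genes), so most of the differences were small. The median log2 fold change over the enzymes was 0.02, and over all tested genes it was near 0 (-0.004). In 11 of the 59 genes (18.6%, against 17.2% of all tested genes) no library of one population reached into the range of the other: Dnmt3b, Tet2, Kmt2a, Kmt2d, Setd1b, Setdb2, Hdac7 and Hdac9 were higher in every TLCP library, and Ezh1, Kdm5b and Setd5 were lower. The shares called lower and without overlap lay near those of all genes, the share called higher lay above its counterpart, and no test was made of the list.

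The split depended on scaling. Scaled by library totals alone, the median of all tested genes was 0.168, and 22 enzymes were higher and 3 lower. Of all 12015 tested genes, 3207 were higher and 893 lower in that fit. In a limma fit of the authors' TPM values the median of all genes was 0.255. There 20 enzymes were higher and 0 lower (0 lower also at an unadjusted p under 0.05). Of the 13206 genes in the TPM fit, 3176 were higher and 465 lower. Directions below are therefore relative to the bulk of genes, as TMM scaling sets it. Hdac9, Tet2, Setdb2, Hdac7, Kmt2d, Kmt2a and Setd1b were called higher under each of the 28 other settings tried. Ezh1 and Kdm5b were called lower under all of them except both TPM fits.

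**Figure D1:**
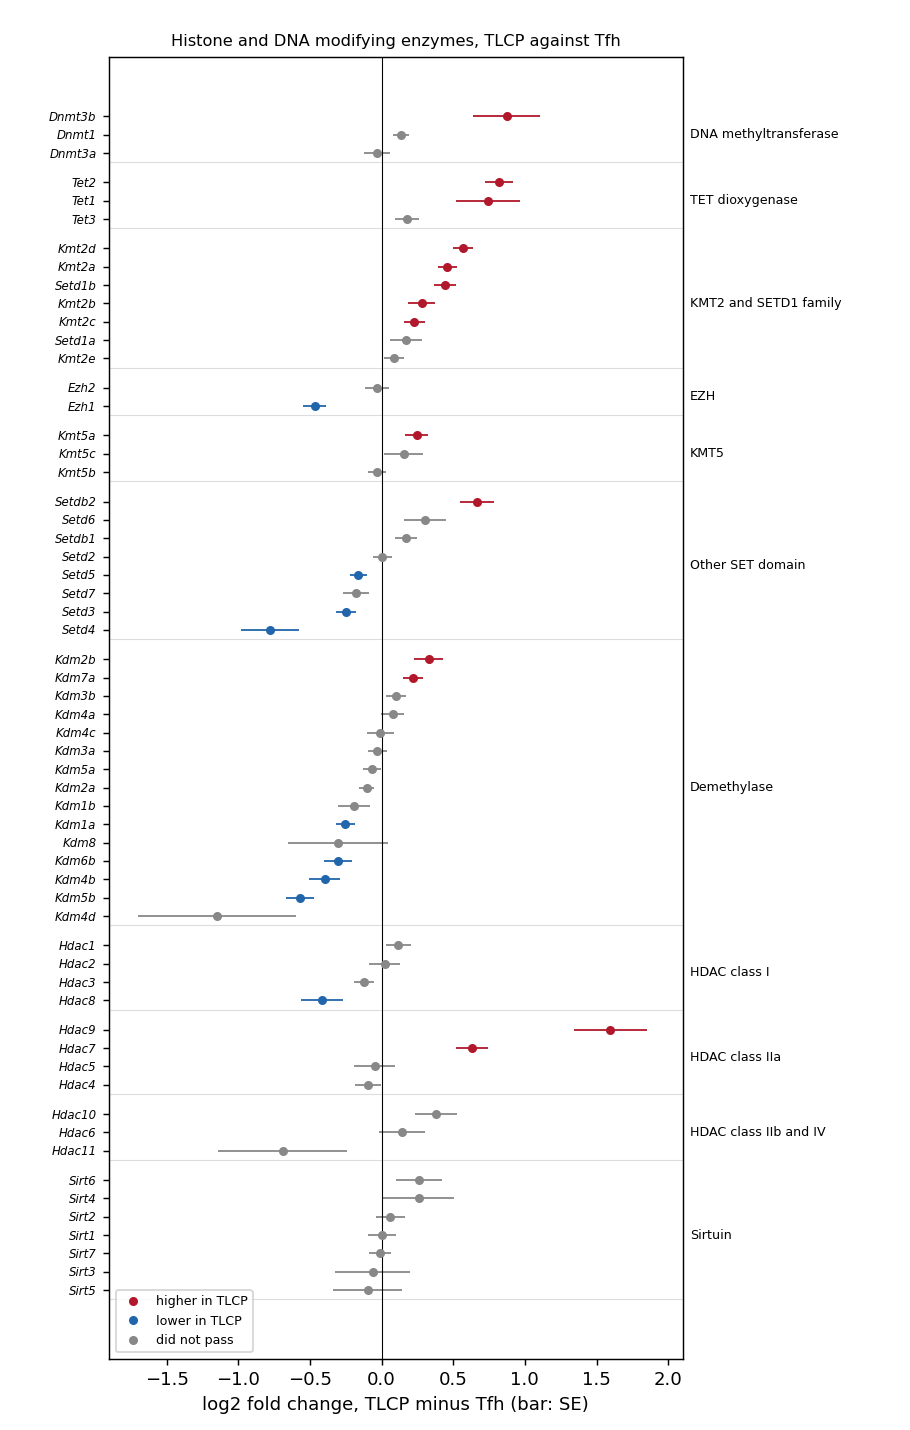
Log2 fold change (TLCP minus Tfh) of the 59 enzyme genes, grouped by enzyme class. Points are edgeR estimates and bars are 1 SE. Red points passed as higher in TLCP (14), blue as lower (9), and grey did not pass (36). All 7 KMT2 and SETD1 genes lie to the right of 0, and 11 of 15 demethylase genes lie to the left.

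Levels between genes were compared per length, as mean TPM of the authors over the 12 libraries. The most abundant enzyme transcripts were Kmt2e with 86.2 TPM, Dnmt1 with 81.9, Kmt2a with 69.3, Setd2 with 55.7 and Ezh2 with 52.5. The least abundant were Hdac11 with 0.978 TPM, Kdm4d with 1.12, Hdac9 with 1.27, Sirt3 with 1.47 and Tet1 with 1.70. The median was 20.3 TPM over the enzymes and 13.4 over all tested genes. Several of the genes with the largest fold changes were thus among the least abundant: Hdac9, Tet1 and Dnmt3b ranked 57, 55 and 53 of the 59. Only Kmt2a combined a call in all settings with a place among the 5 most abundant.

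The promoters are shown next for the H3K4 methyltransferase genes that rose and had a matched sequence (Kmt2a, Kmt2d, Kmt2c). Those of Hdac9, which had the highest fold change, and of Ezh1 and Kdm5b, which fell without overlap, follow. RefSeq sequences of GRCm38.p6 matched 48 of the 59 genes, and Setd1b and Kmt2b, which also rose, were not among them. Each line gives bases -250 to -11 before the RefSeq gene start, 5′ to 3′ on the strand of the gene, and capitals mark the GC box GGGCGG, the motif bound by Sp1-type factors, on either strand. The windows are chr9:44881300-44881539 (minus strand), chr15:98871216-98871455 (minus), chr5:25498794-25499033 (minus), chr12:34917106-34917345 (minus), chr11:101226474-101226713 (minus) and chr1:134559928-134560167 (plus), in that order.
Kmt2a: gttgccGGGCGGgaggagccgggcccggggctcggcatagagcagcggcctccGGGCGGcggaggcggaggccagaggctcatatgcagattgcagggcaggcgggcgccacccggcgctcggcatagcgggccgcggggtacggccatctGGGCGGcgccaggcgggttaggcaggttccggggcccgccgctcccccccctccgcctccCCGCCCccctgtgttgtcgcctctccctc
Kmt2d: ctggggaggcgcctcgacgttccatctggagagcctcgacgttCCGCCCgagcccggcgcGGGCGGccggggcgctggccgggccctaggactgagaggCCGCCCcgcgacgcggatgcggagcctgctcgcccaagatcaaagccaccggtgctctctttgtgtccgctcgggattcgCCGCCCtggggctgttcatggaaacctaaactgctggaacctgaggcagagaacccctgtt
Kmt2c: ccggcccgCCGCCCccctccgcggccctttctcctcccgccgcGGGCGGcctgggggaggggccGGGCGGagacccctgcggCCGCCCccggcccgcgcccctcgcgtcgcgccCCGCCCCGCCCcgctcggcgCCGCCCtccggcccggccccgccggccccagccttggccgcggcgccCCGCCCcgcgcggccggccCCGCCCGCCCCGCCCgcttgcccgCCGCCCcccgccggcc
Hdac9: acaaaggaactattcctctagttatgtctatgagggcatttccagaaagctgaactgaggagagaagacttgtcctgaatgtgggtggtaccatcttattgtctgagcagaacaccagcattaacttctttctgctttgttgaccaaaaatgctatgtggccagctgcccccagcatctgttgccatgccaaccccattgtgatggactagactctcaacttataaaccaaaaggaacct
Ezh1: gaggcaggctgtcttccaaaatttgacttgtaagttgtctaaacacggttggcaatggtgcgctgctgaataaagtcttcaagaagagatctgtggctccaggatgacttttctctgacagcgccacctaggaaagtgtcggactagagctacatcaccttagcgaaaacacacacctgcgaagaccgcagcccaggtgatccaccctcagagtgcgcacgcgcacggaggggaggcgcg
Kdm5b: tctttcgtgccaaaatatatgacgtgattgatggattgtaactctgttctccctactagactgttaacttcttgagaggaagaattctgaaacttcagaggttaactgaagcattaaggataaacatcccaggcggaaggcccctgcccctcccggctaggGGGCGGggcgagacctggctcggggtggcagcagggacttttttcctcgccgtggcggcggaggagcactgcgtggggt

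The KMT2 promoters printed above were rich in GC and CpG, and the other promoters were not alike. Genes that did not pass also had CpG-rich promoters, such as Setd1a with 25 CpG dinucleotides and Setd2 with 30. Kmt2a held 28 CpG dinucleotides and 4 GC boxes in 240 bases, Kmt2d 26 and 4, and Kmt2c 46 and 12, some of them overlapping. Ezh1 held 13 CpG and no GC box, and Kdm5b 12 and 1. Hdac9 held no CpG and no GC box in this window. Over windows of the same length, GC boxes were present in 25 of the 48 enzyme promoters (52.1%) and in 31.3% of all 32851 promoters. The enzymes had 1 promoter per gene. The 32851 were not limited to 1 per gene or to tested genes, so these are unlike sets. The ETS core CCGGAAG was present in 7 (14.6%, against 6.2%) and the CCAAT box CCAAT in 21 (43.8%, against 33%), each searched on both strands. A CpG ratio of observed to expected of at least 0.6 was found in 37 (77.1%, against 33.5%), and the median GC content was 61.7% (against 52.1%). The RefSeq start nearest to the 5′ end of the gene was taken with no limit on distance, so some windows lay inside the gene. Examples are Setd5, which fell (window from chr6:113104685, gene from 113077365), and Tet1, which rose (window to chr10:62887574, gene to 62908996). GC boxes were present in 8 of 12 matched promoters of enzymes that rose, 2 of 7 of those that fell and 15 of 29 of those not called. These are letters in a window, with no measurement of binding.

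Among the writers and erasers of DNA methylation, Tet2, Tet1 and Dnmt3b rose, and Tet3, Dnmt1 and Dnmt3a did not pass. Tet2, one of the dioxygenases that oxidize methylcytosine, had the smallest p of these genes (chr3:133463679-133545139, GRCm38, minus strand). Its level was 87.3, 90.7, 93.5, 79.7, 82.4 and 73.5 CPM in TLCP libraries 1 to 6, and 59.4, 56.1, 47.2, 39.0, 41.3 and 43.6 CPM in Tfh libraries 1 to 6. Every TLCP library lay above every Tfh library. The means were 84.5 CPM ± 7.42 (SD, n = 6) and 47.8 ± 8.26, a log2 fold change of 0.82 (SE 0.0998, edgeR adjusted p = 2.97e-06) or 1.77-fold.

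Tet1, another of these dioxygenases, was much scarcer (chr10:62804570-62908996, minus strand). Its TLCP libraries 1 to 6 had 14.5, 12.4, 14.3, 21.8, 12.1 and 5.78 CPM, and its Tfh libraries 8.59, 9.45, 7.88, 6.53, 7.19 and 8.45 CPM. TLCP library 6 lay below all Tfh libraries, and the other 5 lay above them. The log2 fold change was 0.74 (SE 0.223, edgeR adjusted p = 0.0144). The call was lost without TLCP library 4, which had the highest level (0.54, adjusted p = 0.0543), and without TLCP libraries 4 and 5, the richest in immunoglobulin counts (0.54, adjusted p = 0.0916). It was also lost with limma voom (0.60, adjusted p = 0.0892), in both TPM fits (adjusted p = 0.0715 and 0.0741) and among replicates 4 to 6 (0.81, adjusted p = 0.187), while it held among replicates 1 to 3 (0.67, adjusted p = 0.0103). Tet3 had 110 CPM ± 14.1 in TLCP and 97.6 ± 8.77 in Tfh, with a log2 fold change of 0.18 that did not pass (edgeR adjusted p = 0.12). It passed without TLCP library 6 (adjusted p = 0.0438) and with the replicate block, which pairs libraries of the same number (adjusted p = 0.0469). Tet3 also passed with library totals alone (edgeR adjusted p = 0.00822), among replicates 1 to 3 (0.0196) and in both TPM fits (limma, 0.0263 and 0.0267). In the other 22 of 28 settings it did not.

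Dnmt3b, a DNA methyltransferase that sets new methylation, rose at a low level (chr2:153649450-153687730, plus strand). Its TLCP libraries 1 to 6 had 8.21, 7.29, 11.9, 8.07, 7.75 and 6.86 CPM, and its Tfh libraries 4.43, 3.59, 5.12, 2.07, 6.20 and 5.58 CPM. The lowest TLCP library lay above the highest Tfh library. The log2 fold change was 0.87 (SE 0.233, edgeR adjusted p = 0.00659) from counts of 13 to 99 reads per library. It was 1.05 among replicates 1 to 3 (adjusted p = 0.00576) and 0.67 among replicates 4 to 6, where it did not pass (adjusted p = 0.219). The other gene for setting new methylation, Dnmt3a, was far more abundant and did not pass, with 89.4 CPM ± 9.95 in TLCP and 91.3 ± 11.8 in Tfh (log2 fold change -0.03, adjusted p = 0.818). Dnmt1, which copies methylation after replication, had 264 CPM ± 12.4 and 240 ± 9.04 (0.14, adjusted p = 0.0587). It passed in the authors' deposited table (padj = 0.0242) and in 7 of 28 settings. With edgeR these were without TLCP library 1 (adjusted p = 0.0395), RLE scaling (0.0419), library totals alone (0.00532) and the stricter filter (0.0369). The others were DESeq2 (adjusted p = 0.0235) and both TPM fits (limma, 0.0173 and 0.0175).

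**Figure D2:**
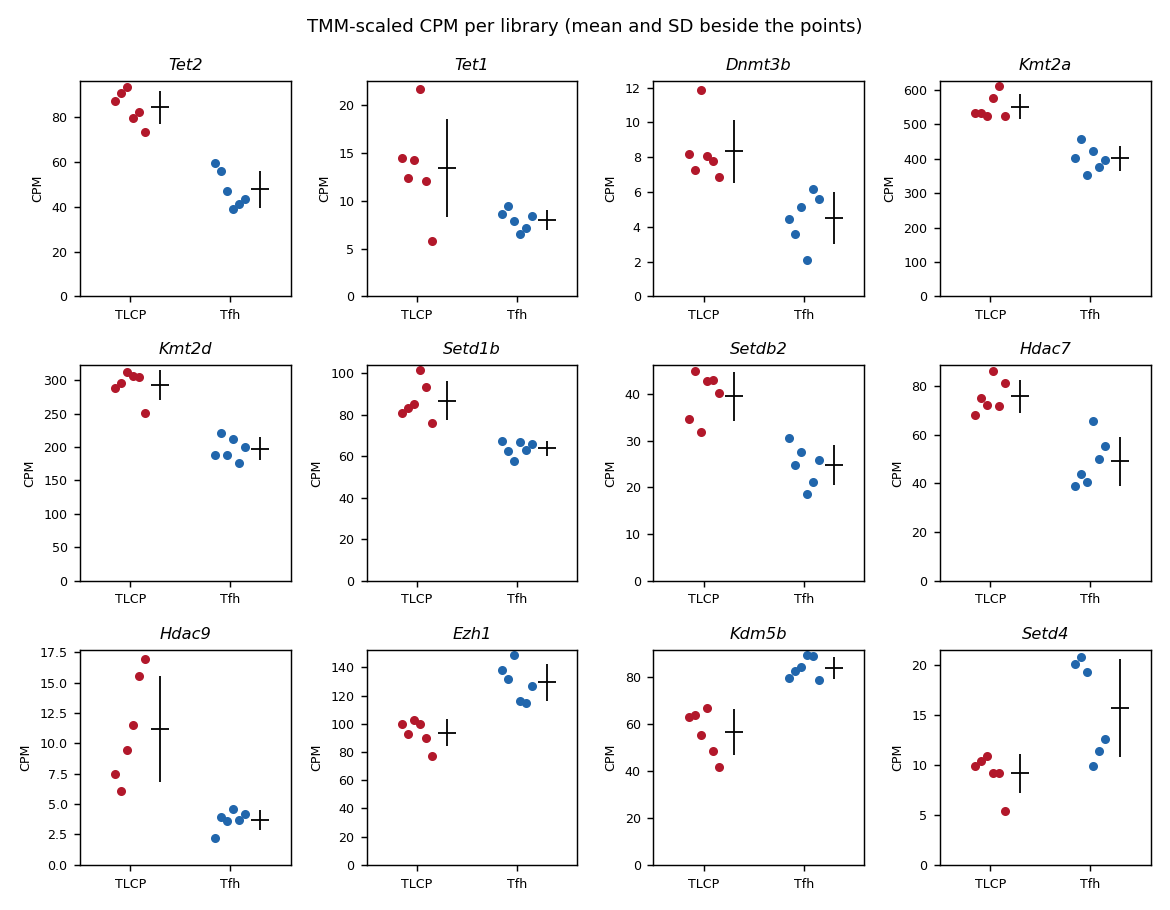
TMM-scaled CPM per library for 12 enzyme genes. Each point is 1 library (red TLCP, blue Tfh, 6 each, in library order from left to right), and the cross beside the points gives the mean and the SD. All axes start at 0. TLCP and Tfh libraries do not overlap for any panel except Tet1 and Setd4.

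All 7 genes of the KMT2 and SETD1 family, the methyltransferases of H3 lysine 4 and their relative Kmt2e, had a positive log2 fold change (0.09 to 0.57, median 0.28), and 5 of the 7 rose, where 16.8% of all tested genes did. The 7 stayed positive under RLE, upper quartile and library total scaling and in both TPM fits, and stayed above the median of all genes in each. With replicates 1 to 3 alone 6 of 7 were positive. Kmt2d, the enhancer methyltransferase MLL4 (chr15:98831669-98871204, minus strand), ranged from 251 to 312 CPM in TLCP with a median of 300 and from 175 to 221 in Tfh with a median of 195. The populations did not overlap, and the log2 fold change was 0.57 (SE 0.0686, edgeR adjusted p = 2.75e-06). Kmt2a, or MLL1, whose product maintains Hox gene expression (chr9:44803355-44881296, minus strand), ranged from 524 to 613 CPM in TLCP with a median of 533 and from 353 to 457 in Tfh with a median of 399. Its populations were also apart, and the log2 fold change came to 0.46 (SE 0.066, adjusted p = 2.28e-05). Setd1b, the catalytic subunit of a COMPASS complex at promoters (chr5:123142193-123168629, plus strand), ranged from 76.1 to 102 CPM with a median of 84.3 in TLCP and from 57.9 to 67.1 with a median of 64.5 in Tfh (0.44, SE 0.0764, adjusted p = 0.000157).

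The other members of the family changed less, and their populations overlapped. Kmt2b, the closest relative of Kmt2a, had 119 CPM ± 10.2 and 97.8 ± 15.6 (log2 fold change 0.28, edgeR adjusted p = 0.0234). Kmt2c, the closest relative of Kmt2d, had 256 CPM ± 23.5 and 218 ± 22.1 (0.23, adjusted p = 0.0215). Both calls were lost when single libraries were left out: Kmt2b did not pass without TLCP library 4 or 5 or Tfh library 3 or 5 (adjusted p 0.0523 to 0.0673), nor Kmt2c without TLCP library 4 or Tfh library 4 (0.076 and 0.0544). Without the TLCP libraries 4 and 5 together, 3 of the 7 passed as higher, as did 1513 of all 12299 genes in that fit. Setd1a (0.17) and Kmt2e (0.09), the latter lacking methyltransferase activity, did not pass.

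The EZH pair, the catalytic subunits of Polycomb repressive complex 2, differed in opposite degree. Ezh1, the form found in resting cells (chr11:101191115-101226463, minus strand), ranged from 77.2 to 103 CPM in TLCP with a median of 96.2 and from 115 to 149 in Tfh with a median of 129. It was lower in every TLCP library, with a log2 fold change of -0.47 (SE 0.0811, edgeR adjusted p = 0.000167). Ezh2, the form of dividing cells, had 145 CPM ± 13.3 in TLCP and 148 ± 17.8 in Tfh (-0.03, adjusted p = 0.796). In the TPM fit Ezh1 did not pass (-0.17, adjusted p = 0.376).

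Among the other histone lysine methyltransferases, Setdb2, a relative of the H3 lysine 9 methyltransferase Setdb1, stood out (chr14:59402009-59440884, minus strand). Its TLCP libraries 1 to 6 had 34.6, 44.9, 31.8, 42.8, 43.2 and 40.2 CPM, and its Tfh libraries 30.7, 24.9, 27.6, 18.6, 21.2 and 26.0 CPM. The lowest TLCP library was just above the highest Tfh library. The log2 fold change was 0.67 (SE 0.119, edgeR adjusted p = 0.000219). Setdb1 itself had 70.0 CPM ± 4.22 and 61.9 ± 6.11 and did not pass (0.17, adjusted p = 0.0887).

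Setd4 had the lowest log2 fold change among the enzymes that passed, -0.78 (SE 0.205, edgeR adjusted p = 0.00609; chr16:93583457-93604063, minus strand). Its TLCP libraries 1 to 6 had 9.91, 10.4, 10.9, 9.19, 9.23 and 5.42 CPM, and its Tfh libraries 20.1, 20.8, 19.3, 9.87, 11.4 and 12.6 CPM. Tfh libraries 1 to 3 were high and Tfh libraries 4 to 6 overlapped TLCP. Among replicates 1 to 3 the log2 fold change was -0.94 (adjusted p = 0.000104), and among replicates 4 to 6 it was -0.53 and did not pass (adjusted p = 0.183). Reads on the opposite strand made up 16.9% of the reads at Setd4.

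The remaining SET domain genes changed by small amounts. Setd3, a methyltransferase of actin histidine, fell from 91.3 CPM ± 5.7 in Tfh to 76.9 ± 4.96 in TLCP (log2 fold change -0.25, edgeR adjusted p = 0.00782). Setd5 fell from 246 CPM ± 19.7 to 220 ± 6.53 (-0.16, adjusted p = 0.0428). Its populations did not overlap, yet it did not pass without any 1 of TLCP libraries 1, 3, 4 or 6 or Tfh libraries 1, 2 or 3 (adjusted p 0.0546 to 0.0976). The call was also lost with RLE scaling (adjusted p = 0.0575), without a filter on low counts (0.0883), with the stricter filter (0.054), without immunoglobulin, B and plasma cell genes (0.0519) and without TLCP libraries 4 and 5 (0.0974). Setd5 did not pass in the authors' deposited table (padj = 0.0507). Both genes turned to a positive sign in the TPM fits, as did Setd5 with library totals alone. Kmt5a, which places the first methyl group on H4 lysine 20, rose from 53.6 CPM ± 4.72 to 63.6 ± 5.91 (0.25, adjusted p = 0.0247), and did not pass without TLCP library 2 or 5 or Tfh library 2 or 3 (0.05 to 0.0756). Kmt5b (-0.03) and Kmt5c (0.15), which add further methyl groups there, did not pass, nor did Setd2, the H3 lysine 36 trimethylase (250 CPM ± 16.3 and 249 ± 20.7, adjusted p = 0.957), Setd6 (0.31) or Setd7 (-0.18). With the replicate block Setd7 passed as lower (edgeR adjusted p = 0.0475).

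Of the 15 demethylase genes, 4 fell (26.7%, against 16.4% of all tested genes) and 2 rose (13.3%, against 16.8%), and 11 had a negative log2 fold change. By library totals alone 7 of 15 were negative, and in both TPM fits 5 of 15. Relative to the median of all genes, 11 lay below it with TMM, RLE, upper quartile and library total scaling, and 10 in both TPM fits. Kdm5b, a demethylase of H3 lysine 4 (chr1:134560171-134635285, plus strand), ranged from 41.6 to 66.9 CPM in TLCP with a median of 59.1 and from 78.5 to 89.2 in Tfh with a median of 83.2. No TLCP library reached the Tfh range, and the log2 fold change was -0.57 (SE 0.0984, edgeR adjusted p = 0.000159). It did not pass in the TPM fit (-0.27, adjusted p = 0.141).

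The other demethylases that fell overlapped between the populations. Kdm4b, which acts on H3 lysine 9, had 21.1 CPM ± 1.66 in TLCP and 27.8 ± 4.47 in Tfh (log2 fold change -0.40, edgeR adjusted p = 0.00884). Kdm6b, which removes methyl groups from H3 lysine 27, had 49.7 CPM ± 6.6 and 61.4 ± 8.27 (-0.30, adjusted p = 0.0229). It did not pass without TLCP library 2 or Tfh library 5 or 6 (0.0504 to 0.0666). Kdm1a, the amine oxidase LSD1 that acts on H3 lysine 4, had 78.4 CPM ± 5.11 and 93.3 ± 5.61 (-0.25, adjusted p = 0.00665), and in the TPM fits its sign was positive (0.03 and 0.04).

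The demethylases that rose were Kdm2b, a CpG-binding subunit of a variant Polycomb complex, and Kdm7a, which acts on H3 lysines 9 and 27. Kdm2b had 54.8 CPM ± 6.55 in TLCP and 43.6 ± 6.38 in Tfh (log2 fold change 0.33, edgeR adjusted p = 0.0161), and it did not pass without TLCP libraries 4 and 5 (0.28, adjusted p = 0.0841). Kdm7a had 190 CPM ± 5.33 and 164 ± 18.8 (0.22, adjusted p = 0.0212). It did not pass without TLCP library 2 (adjusted p = 0.0569) or Tfh library 5 (0.0575). Kdm1b, Kdm2a, Kdm3a, Kdm3b, Kdm4a, Kdm4c, Kdm4d, Kdm5a and Kdm8 did not pass, with log2 fold changes from -1.15 (Kdm4d, 2 to 35 reads per library) to 0.10 (Kdm3b). At Kdm1b, 53.6% of reads lay on the opposite strand, where the files place Dek and Tpmt.

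Among the deacetylases, the class IIa genes held the 2 that rose. Class IIa enzymes shuttle between nucleus and cytoplasm and bind MEF2 factors. Hdac9 had the highest log2 fold change of the 59 genes, 1.59 (SE 0.255, edgeR adjusted p = 7.03e-05), at a low level (chr12:34047580-34917095). Its TLCP libraries 1 to 6 had 7.51, 6.09, 9.49, 11.5, 15.5 and 17.0 CPM, and its Tfh libraries 2.21, 3.95, 3.64, 4.62, 3.72 and 4.22 CPM. All TLCP libraries were above all Tfh libraries, and TLCP libraries 4 to 6 were above TLCP libraries 1 to 3. The fitted difference was 3.02-fold on TMM-scaled counts. On the authors' per-length scale the mean level was 2.01 TPM ± 0.9 in TLCP and 0.531 ± 0.094 in Tfh. The B cell genes summed to 404, 774, 900, 809, 780 and 1618 CPM in the same TLCP libraries, and their part in Hdac9 was not tested. Without TLCP libraries 4 and 5 the log2 fold change was 1.43 (adjusted p = 0.00142). It was 1.24 among replicates 1 to 3 (adjusted p = 0.0045) and 1.80 among replicates 4 to 6 (adjusted p = 0.000161).

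Hdac7, the class IIa deacetylase best known from thymocytes, was the more abundant (chr15:97792664-97844502, minus strand). Its TLCP libraries 1 to 6 had 68.3, 75.1, 72.1, 86.2, 71.7 and 81.3 CPM, and its Tfh libraries 39.0, 43.9, 40.5, 65.6, 49.96 and 55.2 CPM. Tfh library 4 lay just below the lowest TLCP library, and the populations did not overlap. The log2 fold change was 0.63 (SE 0.11, edgeR adjusted p = 0.0002). The other class IIa genes did not pass: Hdac4 had 39.5 CPM ± 3.51 and 42.3 ± 4.99, and Hdac5 had 18.0 ± 3.67 and 18.6 ± 2.96.

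Of the class I deacetylases, only Hdac8 passed. It had 11.4 CPM ± 1.21 in TLCP and 15.3 ± 3.03 in Tfh (log2 fold change -0.42, edgeR adjusted p = 0.0343), and did not pass without any 1 of TLCP libraries 1, 2 or 4 or Tfh libraries 1, 3 or 5 (0.0518 to 0.0982). Hdac1 (37.0 CPM ± 1.65 and 34.0 ± 3.49, adjusted p = 0.312), Hdac2 (75.2 ± 7.53 and 73.9 ± 13.1, adjusted p = 0.9) and Hdac3 (51.1 ± 2.56 and 55.6 ± 2.2, adjusted p = 0.182) did not. Hdac6, Hdac10 and Hdac11, of classes IIb and IV, did not pass either. Hdac10 had a log2 fold change of 0.38 (edgeR adjusted p = 0.0551) and passed with the replicate block (adjusted p = 0.0382) and in the authors' deposited table (padj = 0.0437). None of the 7 sirtuins, the NAD-dependent deacylases, passed, and their log2 fold changes lay between -0.10 (Sirt5) and 0.26 (Sirt6). Sirt1 had 46.4 CPM ± 3.96 and 46.4 ± 6.83 (adjusted p = 0.991). At an unadjusted p under 0.05 edgeR, DESeq2 and limma voom also gave 0 of 7. The limma fits of TPM gave 2 of 7 higher at an unadjusted p under 0.05 and 1 of 7 at an adjusted p under 0.05.

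Ratios of related enzymes within the same library do not depend on how libraries are scaled. They were computed as counts of one gene over counts of the other for 20 pairs, with 0.5 added to each count, and are given as a description with no test, since the pairs were chosen with the results known. In 9 of the 20 pairs the populations did not overlap. The Hdac9 to Hdac4 ratio had a median of 0.291 in TLCP (0.143 to 0.433) and 0.0903 in Tfh (0.0614 to 0.108), 3.04-fold higher in TLCP. The ratio of Tet2 to Tet3 had a median of 0.763 in TLCP (0.7 to 0.851) and 0.494 in Tfh (0.366 to 0.563), 1.58-fold higher. The ratio of Hdac7 to Hdac5 was 1.63-fold higher, that of Setdb2 to Setdb1 1.41-fold and that of Kdm2b to Kdm2a 1.35-fold.

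In the opposite direction, the ratio of Ezh1 to Ezh2 had a median of 0.658 in TLCP (0.531 to 0.765) and 0.87 in Tfh (0.813 to 0.953), 1.36-fold lower in TLCP. The ratio of Kdm5b to Kdm5a was 1.44-fold lower, that of Kdm4b to Kdm4a 1.38-fold and that of Setd5 to Kmt2e 1.19-fold. In each of these 9 pairs the gene named first differed between the populations and the gene named second did not pass. Ratios within the KMT2 and SETD1 pairs (Kmt2a to Kmt2b, Kmt2d to Kmt2c, Setd1b to Setd1a) overlapped between the populations.

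**Figure D3:**
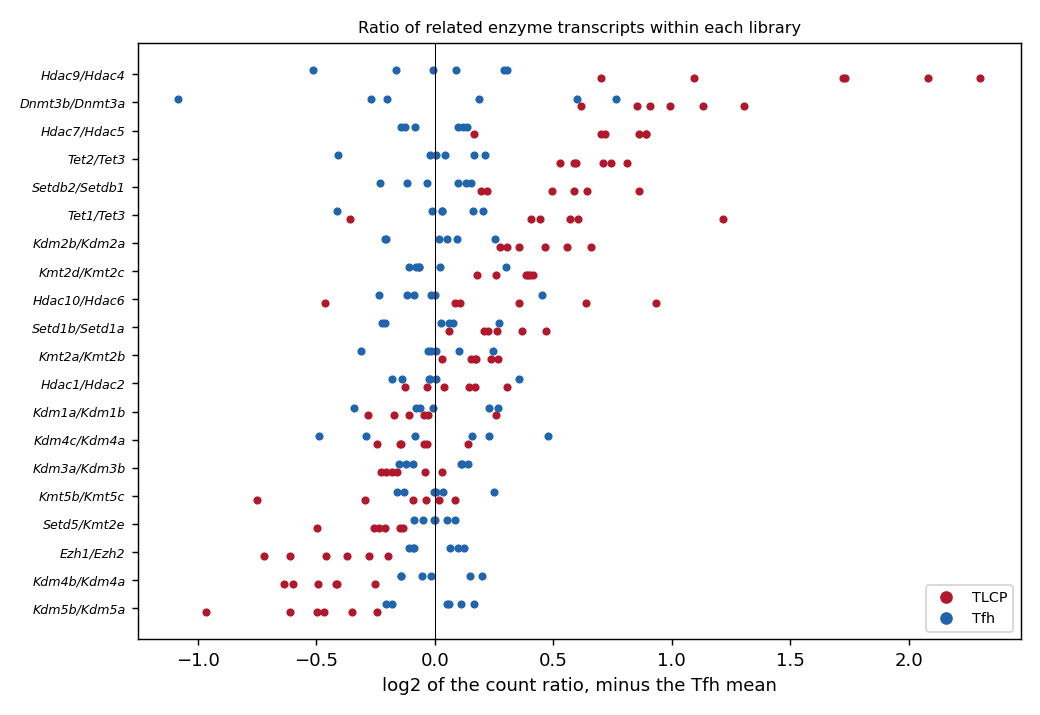
Log2 of the count ratio of 20 enzyme pairs in each library, minus the mean of the 6 Tfh libraries. Red points are TLCP libraries and blue points Tfh libraries. Points do not overlap between the populations for 9 pairs, with Hdac9/Hdac4 highest and Kdm5b/Kdm5a lowest.

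Other chromatin genes that the name patterns do not take came from 8 lists, of complex subunits, other modifying enzymes, partners and readers. The lists held 146 genes, with a gene in more than 1 list counted once, and 137 were tested. Of these, 24 were higher and 23 lower (34.3% called, against 33.2% of all tested genes), and their median log2 fold change was -0.01. Of 11 subunits of the H3 lysine 4 methyltransferase complexes 2 rose and 3 fell (18.2% and 27.3%, against 16.8% and 16.4% of all tested genes). In this list 6 had a positive and 5 a negative log2 fold change. Ncoa6, a subunit of the KMT2C and KMT2D complexes, had a log2 fold change of 0.25 (edgeR adjusted p = 0.0047), and the shared core subunit Dpy30 -0.42 (adjusted p = 0.00515). Of 31 Polycomb genes 5 rose and 8 fell (16.1% and 25.8%), with the chromobox gene Cbx6 (-0.67, adjusted p = 4.36e-06) and the complex 2 cofactor Jarid2 (-0.46, adjusted p = 4.35e-05) having the smallest p.

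Of 18 acetyltransferase genes, whose products oppose the deacetylases, 4 rose and 1 fell (22.2% and 5.56%, against 16.8% and 16.4% of all tested genes). Kat2a, the catalytic subunit of SAGA, rose by a log2 fold change of 0.57 (edgeR adjusted p = 0.000456) and the coactivator Ncoa3 by 0.41 (adjusted p = 3.8e-05). Of 23 tested subunits of deacetylase corepressors 3 rose and 5 fell (13.0% and 21.7%), among them Arid4a (0.38, adjusted p = 0.000256) and Tbl1xr1 (-0.42, adjusted p = 0.000581). Of 17 other tested lysine methyltransferase genes 4 rose and 2 fell (23.5% and 11.8%). Prdm1, better known as the transcription factor Blimp-1, rose from 17.6 CPM ± 6.04 in Tfh to 108 ± 14.3 in TLCP (2.63, adjusted p = 5.03e-07), and Smyd4 fell (-0.74, adjusted p = 9.67e-05). The plasma cell genes summed to 827 to 1727 CPM in Tfh and 4289 to 25834 in TLCP, and their part in Prdm1 was not tested.

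Of 11 other tested JmjC genes 2 rose and 1 fell (18.2% and 9.09%, against 16.8% and 16.4% of all tested genes). They were led by Jarid2, the one that fell and also in the Polycomb list, and by Riox2 (0.44, edgeR adjusted p = 0.00017). Of 9 tested arginine methyltransferases only Prmt3 (11.1%), which methylates ribosomal protein S2, passed. It fell from 73.5 CPM ± 10.4 in Tfh to 34.4 ± 3.72 in TLCP (-1.10, adjusted p = 6.81e-08), and the next gene, Prmt6, did not pass (-0.24, adjusted p = 0.0702). Of 20 tested partners and readers of DNA methylation 5 rose and 3 fell (25% and 15%). Cxxc5, a CpG-binding protein, fell from 34.3 CPM ± 5.84 to 7.27 ± 3.36 (-2.23, adjusted p = 4.06e-06), and Gadd45a, an adaptor in active demethylation, from 19.4 ± 4.35 to 9.72 ± 1.22 (-1.002, adjusted p = 3.8e-05).

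**Figure D4:**
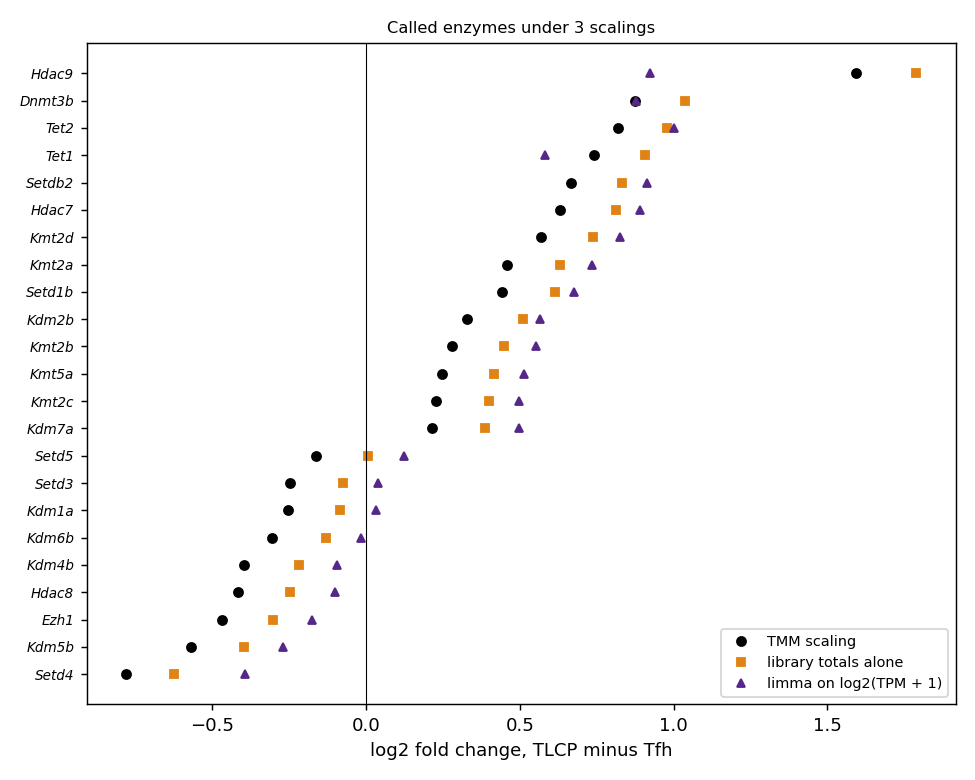
Log2 fold change (TLCP minus Tfh) of the 23 enzyme genes that passed, under TMM scaling, library totals alone and a limma fit of log2(TPM + 1). The median of all genes shifts to the right with library totals and TPM (-0.004, 0.168 and 0.255). All the genes shown shift to the right with library totals. With TPM most do, but Hdac9 (1.59 to 0.92) and Tet1 (0.74 to 0.58) move to the left. Hdac9 is highest with TMM and library totals, and Tet2 with TPM. Setd5 changes sign with library totals and TPM, and Setd3 and Kdm1a with TPM.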

How the data were processed

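Per the labels, RNA was extracted from sorted cells with TRIzol and spin columns, and poly(A) libraries were made with the KAPA HyperPrep chemistry. The submitters' processing notes name GRCm38, STAR 2.7.1a, bcl2fastq 2.20 and DESeq2 1.30.1. Which annotation release was counted is not given in the sources used. Deposited per library are raw STAR read counts for each gene, and the column of reads on the gene's strand was used. Rows that name no gene (44.9% to 56.4% of reads) were left out. CT010467.1, a ribosomal RNA-like gene, took 12.9% to 30.9% of assigned counts and stayed in. The authors also deposited TPM values, used for levels between genes, and a DESeq2 table with its log2 fold changes and p-values.

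Counts were tested with edgeR 4.0.16 in R 4.3.3 (filterByExpr, TMM, quasi-likelihood test with robust dispersion, 2-sided, Benjamini-Hochberg over 12015 genes, threshold 0.05). A positive log2 fold change means higher in TLCP, and its SE was taken as its size over the square root of the F statistic. The gene list, the other lists and the pairs were chosen with earlier results of these data known. Enzymes were named with values where they passed, with every library where they also changed at least 1.5-fold, and 19 were named whatever their values. Of each other chromatin list the 2 genes with the smallest p were named, and of each list of other cells the 2 most abundant. Deviations of same-numbered libraries from the group means correlated at 0.127 to 0.318, and those of other numbers at up to 0.209. For numbers 3 and 4 the values (0.137 and 0.127) were below the best with another number (0.209 and 0.160). Equal numbers were still treated as pairs in the replicate block. This pairing is inferred, and the values in the text are from the fit without the block. Tested on simulated data of this comparison (11810 to 11836 genes, 200 changed, 3 simulations), the method recovered 60.7% of 1.5-fold and 87% of 2-fold changes, with 4.68% false calls. The changed genes all had a mean of at least 5 CPM, so scarcer genes were not covered. They were also a far smaller share of genes than the 33.2% called in the data. Alternatives were RLE and upper quartile scaling, library totals alone, DESeq2 1.42.0, limma 3.58.1 (voom, and log2(TPM + 1) or log2(TPM + 0.1) for genes with mean TPM of at least 1), other filters, unstranded counts, the replicate block, either set of 3 replicates, and leaving out each library, immunoglobulin genes or ribosomal RNA-like genes. Leaving out TLCP libraries 4 and 5, which held the most immunoglobulin (3.75% and 4.64% of counts), was chosen after seeing the data. Promoters are from RefSeq on GRCm38.p6. Gene positions are those in the files.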

Additional observations from a re-analysis of the deposited data

Results flagged for a closer look

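In 3 of 66 groups of 6 libraries looked at, 1 library lay far from the other 5 by Dixon's criterion, which chance meets in about 1 of 20 groups. Dnmt3b was at 11.89 CPM in TLCP library 3 and at 6.864 to 8.207 in the other TLCP libraries. Hdac3 was at 59.87 CPM in Tfh library 5 and at 53.95 to 55.92 in the other Tfh libraries. Setd4 was at 5.419 CPM in TLCP library 6 and at 9.193 to 10.93 in the other TLCP libraries. Without these libraries the calls of Dnmt3b and Setd4 held, and Hdac3 did not pass.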

How the results depend on the processing

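Of 924 values of 33 named enzymes under 28 settings, 821 kept their side of the threshold, 80 lost the call and 16 gained it. Another 7 lost the call with a change of sign: Kdm1a (0.03387 with TPM + 1, 0.03503 with TPM + 0.1), Setd3 (0.03818 and 0.03951) and Setd5 (0.1244 and 0.1287, and 0.00797 with library totals alone). Changes of sign without a call in either fit are among the 821, as for Dnmt3a (-0.07733 to 0.2562) and Ezh2 (-0.1723 to 0.2597). Library totals alone gave 22 enzymes higher and 3 lower with a median of 0.189, and 43 other chromatin genes higher and 8 lower. Of all 12015 genes, 3207 were higher and 893 lower. TPM + 1 and TPM + 0.1 each gave 20 enzymes higher and 0 lower (limma, medians 0.3243 and 0.335), and 42 other chromatin genes higher and 4 lower. Of 13206 genes, 3176 were higher and 465 lower with TPM + 1, and 3146 and 460 with TPM + 0.1. Replicates 4 to 6 alone gave 9 higher and 4 lower with a median of 0.103, and 15 and 14 other chromatin genes, from fewer samples. Of all 12265 genes in that fit, 1450 were higher and 1342 lower. Without TLCP libraries 4 and 5, 9 enzymes and 15 other chromatin genes were higher, and 1513 of all 12299 genes in that fit. The cause of these shifts was not tested. Leaving out each library gave 11 to 17 enzymes higher, 7 to 9 lower, medians of 0.0009 to 0.0523, 19 to 24 and 17 to 23 other chromatin genes, and 3489 to 4008 calls over all genes. With the replicate block 16 enzymes were higher and 10 lower, no call was lost, and Tet3, Hdac10 and Setd7 were gained (paired fit). Of all 12015 genes, 2292 were higher and 2161 lower with the block. Replicates 1 to 3 alone lost the calls of Hdac8, Kdm2b, Kdm4b, Kdm6b, Kdm7a, Kmt2c and Kmt5a, and replicates 4 to 6 alone those of Dnmt3b, Hdac8, Kdm1a, Kdm2b, Kmt2b, Kmt5a, Setd3, Setd4, Setd5 and Tet1. In 14 alternatives each, the differences of the 20 ratios moved by less than the larger SD of the 2 populations. The 9 ratios without overlap kept direction, and direction was not followed for those that overlapped. Except for unstranded counts, these alternatives only left out 1 or 2 libraries. Leaving out so few cannot move a mean by 1 SD or reverse populations without overlap, so those alternatives could not show instability. Calls lost without 1 library are given beside each gene. Genes under about 5 CPM (Hdac11, Kdm4d, Sirt3, Sirt4, Kdm8) dropped out of the stricter filter. In simulation, which changed only genes of at least 5 CPM, changes of 1.5-fold were recovered less often than 2-fold ones.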
